A study of Mus musculus with 2 samples.

Results

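The transcription factors of hypothalamic nuclei serve as markers of place. Nkx2-1, Sim1, Nr5a1, Otp, Hmx2, Hmx3, Fezf1, Bsx, Isl1 and Lhx6 encode transcription factors that define nuclei or cell groups of the hypothalamus, and their transcript levels bear on which nuclei each tissue pool sampled. They were found on the array by transcript accession, or else by gene symbol or older symbol. The array carried all 10 genes of 21441 named genes, with 13 of 41174 probes and 31 of 43379 non-control spots. Nkx2-1 was listed as Titf1 and Fezf1 as 3110069A13Rik, and Bsx, listed under a database number in place of a symbol, was matched by its transcript accession NM_178245. The genes were chosen with earlier results of these data known.

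The study compared 4 pools of mouse hypothalamus, each of 4 mice, on 4 one-colour whole-genome arrays. The groups were bezafibrate mice at ZT22, control mice at ZT22, bezafibrate mice at ZT10 and control mice at ZT10, where ZT is the zeitgeber time in hours and bezafibrate is a fibrate drug, used here as a PPARα agonist. By the labels, the schedule began at 8 weeks of age with 2 weeks on normal diet, gave 0.5% bezafibrate in the diet over the next 2 weeks, and closed with 5 weeks without the drug. The labels do not say at which point of this schedule tissue was taken, nor the strain, the sex or what the control mice were fed. The tissue was a square block of brain around the hypothalamus, so it could hold parts of neighbouring regions. Each group was 1 pool on 1 array, so the data hold no spread between mice, and a pair of arrays was compared by its ratio without a p-value. In pooled tissue, fewer cells of a type and less RNA per cell cannot be told apart. All 4 arrays lay on 1 slide, with the control pools at positions 1 (ZT22) and 2 (ZT10) and the bezafibrate pools at positions 3 (ZT22) and 4 (ZT10), so diet and side of the slide cannot be told apart.

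The hypothalamus is a set of small nuclei, and each keeps expressing some of the transcription factors that specified it in the embryo. Nkx2-1 patterns the ventral hypothalamus as a whole. Sim1 and Otp specify neuroendocrine neurons of the paraventricular and supraoptic nuclei, Nr5a1 and Fezf1 the ventromedial nucleus, and Hmx2, Hmx3, Bsx and Isl1 neuron classes of the arcuate nucleus, which controls feeding and growth hormone release. Lhx6 marks GABA neurons of the zona incerta and dorsomedial region, and also neurons of the basal forebrain and pallidum.

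Between 68.7% and 74.6% of spots were well above background on an array, and none was saturated. Levels are given as scaled signals, the processed signal divided by the 75th percentile of its array (893 to 1050 signal units), so that 1 is the level of that percentile. A ratio is the log2 difference of 2 scaled signals. The value after ± is the error that the scanner software assigns to the spots compared, which leaves out mouse and pool variation. It was near 0.20 for bright genes and was not reduced for probes with 10 spots. On probes with 10 or more spots, the median standard deviation of the log2 signal over spots was 0.075 to 0.083 per array. A gene counted as past the threshold at 1.5-fold. Of the 10 genes, 8 were well above background on all 4 arrays, Otp was so on 1 array, and Bsx on 0. No member spot carried an outlier mark.

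Between diets, every factor measured on both arrays by its brightest probe stayed within 1.5-fold. At ZT22, of the 8 genes measured on both arrays, 6 were higher and 2 lower in bezafibrate mice than in control mice, with log2 ratios between -0.08 and 0.39 and a median of 0.08. The only gene past 1.5-fold was Otp, as a bound, so that 1 of 9 genes with a signal on either array was past the threshold, against 5.48% of all 16949 genes tested. At ZT10, 4 were higher and 4 lower in bezafibrate mice, between -0.29 and 0.31 with a median of 0.04, and 0 of 8 were past 1.5-fold, against 3.78% of 17285 genes. The median over all genes was 0.01 at both times, and 52.3% of genes at ZT22 and 52.7% at ZT10 were higher in bezafibrate mice. Past 2-fold stood Otp at ZT22 and no member at ZT10, against 2.44% of all genes at ZT22 and 1.51% at ZT10.

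Between times of day, most of the factors were higher at ZT22 than at ZT10. In bezafibrate mice, 7 of 8 genes were higher and 1 lower at ZT22 than at ZT10, with a median log2 ratio of 0.19, and 2 of 9 were past 1.5-fold, Nr5a1 and, as a bound, Otp, against 5.43% of 16754 genes. With normexp background correction neither was past it (0.52 for Nr5a1 and 0.53 for Otp), but its offset of 50 units on every spot shrinks ratios by design. In control mice 8 of 8 were higher at ZT22, with a median of 0.20 and none past 1.5-fold, against 6.42% of 17395 genes. Hmx3 and Isl1, at 0.01 and 0.02, were the smallest of these, and both were below 0 (-0.02 for each) when the percentile was taken over spots above background on all 4 arrays, and both at -0.01 with quantile normalization, which left 6 of 8 higher. Over all genes the median ratios of ZT22 over ZT10 were 0.04 in bezafibrate mice and 0.03 in control mice, and 59.2% and 58.1% of genes were higher at ZT22. Past 2-fold stood Otp in bezafibrate mice and no member in control mice, against 1.7% and 2.84% of all genes. Higher at ZT22 in both diets, whose pairs of arrays share none, were 7 of 8 factors (87.5%) and 42.8% of the 15918 genes measured on all arrays. With quantile normalization, or the percentile over spots above background on all 4 arrays, it was 5 of 8 factors. The share of all genes was not counted under those 2 settings.

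**Figure D1:**
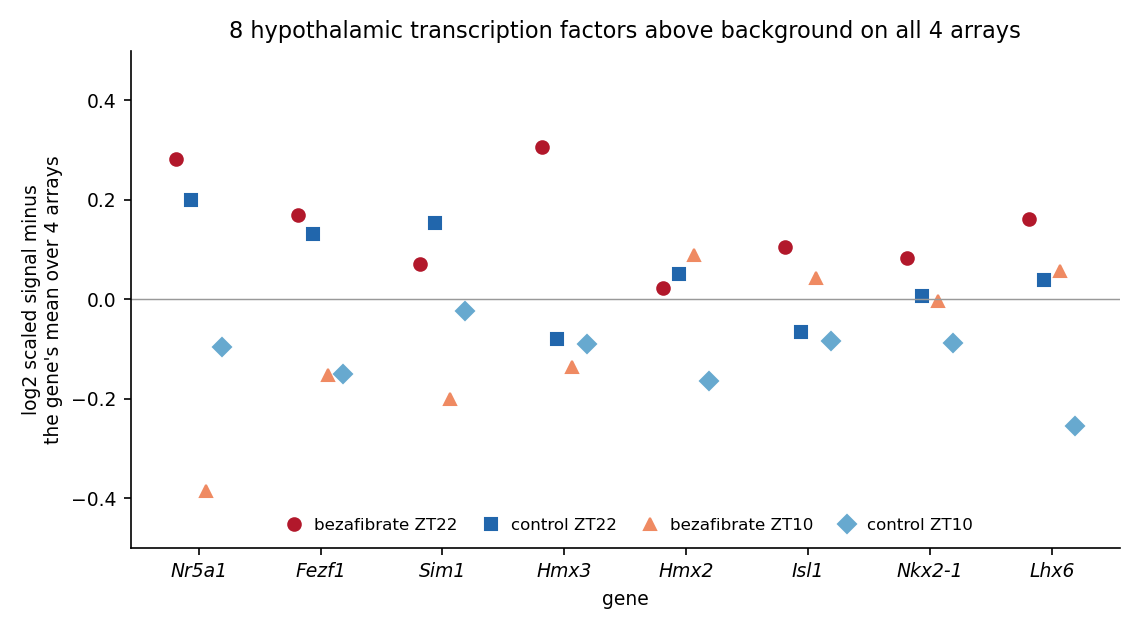
Log2 scaled signal of the 8 factors measured on all arrays, each centred on the mean of its own 4 values. Points stand for single arrays (circles bezafibrate ZT22, squares control ZT22, triangles bezafibrate ZT10, diamonds control ZT10). For 5 of the 8 (Nr5a1, Fezf1, Sim1, Hmx3 and Nkx2-1) both ZT22 arrays lie above both ZT10 arrays, an order whose share over all genes was not counted. Nr5a1 has the widest range, 0.67. The gap between the times is above the scanner error for Nr5a1 (0.30) and Fezf1 (0.28). It is within that error for Sim1 (0.09), Hmx3 (0.01) and Nkx2-1 (0.01).

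Both ventromedial factors were among the 5 genes whose ZT22 arrays both lay above both ZT10 arrays. Of the 5, only these had a gap between the times above the scanner error. The share of all genes with that order was not counted, so the order cannot be read as particular to these factors. The looser order, higher at ZT22 in both diets, held for 42.8% of the 15918 genes measured on all arrays. Nr5a1 encodes steroidogenic factor 1, an orphan nuclear receptor without which the ventromedial nucleus does not form properly, and which also acts in pituitary gonadotrophs, the adrenal and the gonads. The scaled signal of Nr5a1 was 0.215 in bezafibrate mice and 0.203 in control mice at ZT22, against 0.135 in bezafibrate mice and 0.165 in control mice at ZT10. Both ZT22 arrays lay above both ZT10 arrays, and the bezafibrate pool at ZT10 was lowest. ZT22 exceeded ZT10 by 0.67 ± 0.21 (1.59-fold) in bezafibrate mice and by 0.30 ± 0.21 in control mice. Between diets the ratio was 0.08 ± 0.21 at ZT22 and -0.29 ± 0.21 at ZT10. In the order of its 4 levels, the gap between the ZT22 arrays was within the scanner error, and the other 2 gaps, 0.30 and 0.29, exceeded it. A second Nr5a1 probe, for accession D10584, was not well above background on any array and gave no ratio.

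Fezf1, a zinc finger repressor needed for ventromedial neurons, was measured on every array. Its scaled signal was 1.12 in bezafibrate mice and 1.09 in control mice at ZT22, against 0.895 and 0.896 at ZT10 in bezafibrate and control mice. Both ZT22 arrays lay above both ZT10 arrays, and the diets lay within the scanner error of each other at each time. ZT22 exceeded ZT10 by 0.32 ± 0.20 in bezafibrate mice and 0.28 ± 0.20 in control mice, and the diet ratios were 0.04 ± 0.20 at ZT22 and 0.00 at ZT10. Among the other ventromedial factors, Nr0b1, which encodes DAX-1, a partner and repressor of steroidogenic factor 1, had ratios of ZT22 over ZT10 of 0.28 in bezafibrate mice and 0.23 in control mice. Sox14 had 0.04 in bezafibrate mice and 0.38 in control mice. Neither gene passed 1.5-fold in any comparison. The other Sox14 probe disagreed, with 0.51 for time in bezafibrate mice, and -0.40 for diet at ZT10 beside 0.20.

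Since Nr5a1 is also a gonadotroph gene, the anterior pituitary list is set beside it. In bezafibrate over control at ZT10, 7 of 9 pituitary genes measured on both arrays were lower (median -0.56), and the sum of the 7 pituitary genes measured on all arrays was 6.12 in bezafibrate and 4.52 in control mice at ZT22, against 3.35 in bezafibrate and 4.99 in control mice at ZT10. Most of that sum was Cga, the glycoprotein hormone alpha subunit, with scaled signals of 4.65 in bezafibrate and 3.45 in control mice at ZT22 and 2.45 in bezafibrate and 3.97 in control mice at ZT10. Prl and Gh, the prolactin and growth hormone genes, are outside the sum, since neither was well above background in bezafibrate mice at ZT22, where Nr5a1 was highest. Prl had 0.0027 in bezafibrate and 0.0586 in control mice at ZT22 and 0.0169 in bezafibrate and 0.376 in control mice at ZT10. Gh had 0.0104 in bezafibrate and 0.0633 in control mice at ZT22 and 0.0151 in bezafibrate and 0.199 in control mice at ZT10. Of the gonadotroph genes, Lhb had bezafibrate over control ratios of 0.26 at ZT22 and -0.22 at ZT10, and Fshb -0.07 and -0.80. For ZT22 over ZT10, Lhb had 0.28 in bezafibrate and -0.20 in control mice, and Fshb 0.52 and -0.21. Lhb and Cga, like Nr5a1, were highest in bezafibrate mice at ZT22 and lowest in bezafibrate mice at ZT10. Fshb was highest in control mice at ZT10. The pituitary genes thus did not share 1 order over the arrays. Pou1f1, a defining pituitary factor, was not well above background on any array. The part of pituitary RNA in the Nr5a1 values was not tested.

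Of the paraventricular factors, Sim1 was measured on all arrays and Otp on 1. Sim1, a bHLH-PAS factor required for paraventricular and supraoptic neurons, had a scaled signal of 0.130 in bezafibrate mice and 0.138 in control mice at ZT22, against 0.108 in bezafibrate mice and 0.122 in control mice at ZT10. The ZT22 arrays were again the higher ones, and at each time the control array was the higher of the pair. The ratios of ZT22 over ZT10 were 0.27 ± 0.21 in bezafibrate mice and 0.18 ± 0.21 in control mice, and those of bezafibrate over control were -0.08 ± 0.21 at ZT22 and -0.18 ± 0.21 at ZT10. All 3 gaps in its order of levels were within the scanner error.

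Otp, a homeodomain factor needed for most neuroendocrine cells of the paraventricular nucleus, was well above background only in the bezafibrate pool at ZT22. Its processed signal there was 27.1, against 3.25 in control mice at ZT22, 3.91 in bezafibrate mice at ZT10 and 2.15 in control mice at ZT10. The last 3 values were not well above background. With the dim arrays set to the lowest signal called well above background on each, which gives a lower bound, Otp was at least 2.55-fold higher in bezafibrate than in control mice at ZT22 and at least 2.34-fold higher at ZT22 than at ZT10 in bezafibrate mice. With normexp background correction the log2 ratios were 0.59 and 0.53, lower than these bounds. That correction adds an offset of 50 units to every spot, which shrinks the ratios of dim spots by design, so it does not test the bounds. The measured scaled signals behind the bounds were 0.0304, 0.00322 and 0.00372. These bounds, 1.35 and 1.23 on the log2 scale, rest on 1 spot per array. The scanner error of 1.45 belongs to the log2 ratios of the measured signals without that limit, 3.24 and 3.03. No error was computed for the bounds themselves, in which the dim side was replaced.

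Transcripts of paraventricular neurons are given beside the factors. Avp and Oxt, which encode vasopressin and oxytocin, had bezafibrate over control ratios of -0.32 and -0.20 at ZT22 and of -0.67 and -0.16 at ZT10, and Trh, which encodes thyrotropin-releasing hormone, had -0.21 and -0.16. Avp was thus past 1.5-fold at ZT10 with Sim1 at -0.18. For ZT22 over ZT10, Avp had 0.56 in bezafibrate and 0.21 in control mice and Oxt 0.29 and 0.33. Crh was not analysed here. Of 3 other paraventricular factors, Pou3f2, a POU factor known as Brn2, was past 1.5-fold in bezafibrate over control at ZT10, at 0.74, and Sim2 and Arnt2 were past it in none.

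Hmx2 and Hmx3 are paralogous homeobox genes needed for the growth hormone releasing hormone neurons of the arcuate nucleus. They are neighbours on the same strand of mouse chromosome 7, and their promoters are shown because the pair shares a locus and a known role. Whether promoter sequence bears on their ratios was not tested. Each window runs from 250 bases before to 50 bases after a RefSeq start (build GRCm38.p6, plus strand), and capitals mark CpG dinucleotides.
Hmx3 (chr7:131542713-131543012): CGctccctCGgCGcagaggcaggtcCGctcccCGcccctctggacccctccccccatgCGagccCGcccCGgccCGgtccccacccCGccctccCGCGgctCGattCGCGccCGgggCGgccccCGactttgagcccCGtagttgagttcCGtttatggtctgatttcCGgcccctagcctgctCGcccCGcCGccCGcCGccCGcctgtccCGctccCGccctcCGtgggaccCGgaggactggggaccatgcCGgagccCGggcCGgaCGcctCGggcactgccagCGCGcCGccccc
Hmx2, upstream start (chr7:131548507-131548806): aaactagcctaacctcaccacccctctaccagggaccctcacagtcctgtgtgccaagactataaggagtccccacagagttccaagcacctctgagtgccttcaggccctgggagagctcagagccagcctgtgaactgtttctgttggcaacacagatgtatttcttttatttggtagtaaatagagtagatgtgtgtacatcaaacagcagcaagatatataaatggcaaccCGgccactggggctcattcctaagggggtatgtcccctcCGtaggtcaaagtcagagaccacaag
Hmx2, downstream start (chr7:131554043-131554342): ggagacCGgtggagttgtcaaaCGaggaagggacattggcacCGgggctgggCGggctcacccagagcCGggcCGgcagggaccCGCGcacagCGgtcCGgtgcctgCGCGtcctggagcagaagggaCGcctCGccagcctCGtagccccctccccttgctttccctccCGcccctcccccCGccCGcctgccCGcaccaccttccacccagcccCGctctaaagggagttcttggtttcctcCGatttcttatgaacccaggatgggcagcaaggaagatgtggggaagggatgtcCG
The Hmx3 window held 39 CpG at 78% GC. The upstream Hmx2 window held 2 CpG at 50% GC and the downstream one 22 CpG at 67.7% GC.

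Hmx3 was highest in 1 pool. Its scaled signal was 1.84 in bezafibrate mice and 1.41 in control mice at ZT22, against 1.35 in bezafibrate mice and 1.40 in control mice at ZT10. The bezafibrate ZT22 array stood above the other 3, which lay within the scanner error of each other. The ratio of bezafibrate over control was 0.39 ± 0.20 (1.31-fold) at ZT22 and -0.05 ± 0.20 at ZT10, and that of ZT22 over ZT10 was 0.44 ± 0.20 in bezafibrate mice and 0.01 ± 0.20 in control mice. Ghrh, which encodes growth hormone releasing hormone, had scaled signals of 4.08 in bezafibrate and 2.99 in control mice at ZT22 and of 2.92 in bezafibrate and 3.23 in control mice at ZT10. Its bezafibrate over control ratios were 0.45 at ZT22 and -0.14 at ZT10.

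Hmx2 gave different answers by probe. Its brighter probe, for accession AK138228, had scaled signals of 0.336 in bezafibrate mice and 0.343 in control mice at ZT22, against 0.351 in bezafibrate mice and 0.295 in control mice at ZT10. No gap in that order exceeded the scanner error, and the diet ratios were -0.03 ± 0.20 at ZT22 and 0.25 ± 0.20 at ZT10. Its dimmer probe, for NM_145998, had 0.0492 in bezafibrate mice and 0.109 in control mice at ZT22, against 0.0478 in bezafibrate mice and 0.0525 in control mice at ZT10. The control ZT22 array alone was high, which gave a diet ratio of -1.15 ± 0.22 (2.22-fold lower in bezafibrate mice) at ZT22 and a time ratio of 1.05 ± 0.21 in control mice. Each probe is 1 spot per array, so a spot and a transcript effect cannot be told apart.

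**Figure D2:**
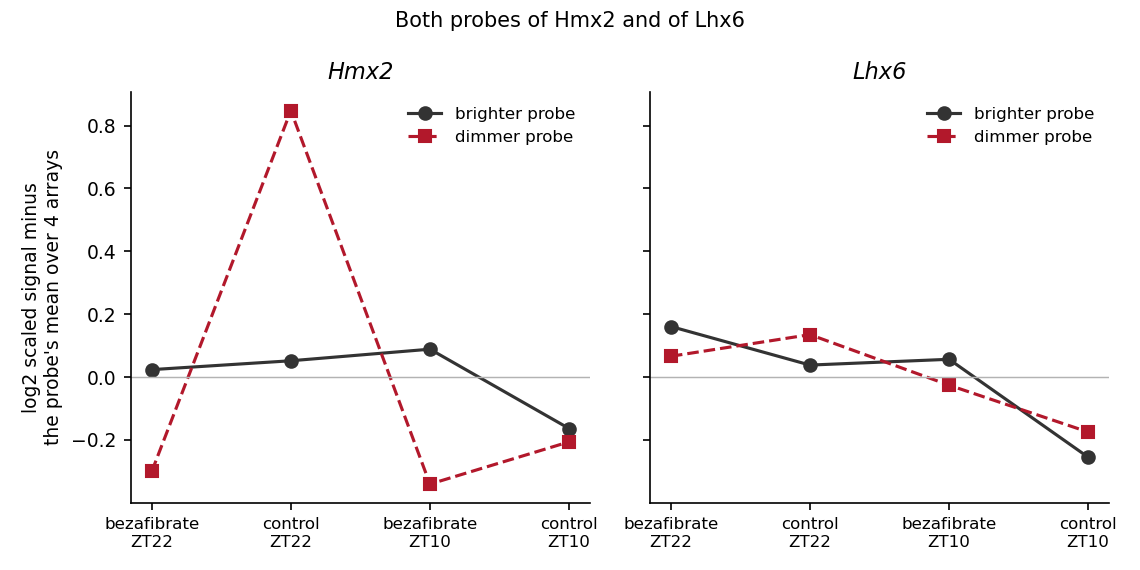
Log2 scaled signal of the brighter (solid line, circles) and dimmer (dashed line, squares) probes of Hmx2 and Lhx6 on the 4 arrays, each centred on its own mean. The Hmx2 probes part on the control ZT22 array, and both Lhx6 probes are lowest on the control ZT10 array.

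Isl1 is a LIM-homeodomain factor of arcuate neurons, among them Pomc neurons, and is also known from striatal, forebrain cholinergic and pituitary cells. It had 10 spots of 1 probe on each array. Processed signals of the spots ran from 1770 to 1880 (median 1830) in bezafibrate mice and from 1680 to 1950 (median 1850) in control mice at ZT22. At ZT10 they ran from 1910 to 2140 (median 2065) in bezafibrate mice and from 1740 to 1880 (median 1810) in control mice. After scaling, the mean levels were 2.05 in bezafibrate and 1.82 in control mice at ZT22 and 1.97 in bezafibrate and 1.80 in control mice at ZT10, so both bezafibrate arrays lay above both control arrays. The diet ratio was 0.17 at ZT22 and 0.13 at ZT10, with a standard error over spots of 0.02 at each time, and the time ratios were 0.06 in bezafibrate and 0.02 in control mice. The scaled spots of the 2 arrays did not overlap for diet at ZT22 and overlapped in the other 3 comparisons. Before scaling, the bezafibrate spots at ZT22 lay within the range of the control spots, and those at ZT10 lay above the control spots. The separation at ZT22 thus depends on the scaling. Spots of 1 array share its pool and its scaling, so the standard error over spots is technical.

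Nkx2-1 also had 10 spots. Their processed signals ran from 500 to 649 (median 569.5) in bezafibrate mice and from 581 to 631 (median 609.5) in control mice at ZT22, and from 560 to 665 (median 636) in bezafibrate mice and from 543 to 609 (median 571) in control mice at ZT10. The scaled means were 0.636 in bezafibrate and 0.603 in control mice at ZT22 and 0.599 in bezafibrate and 0.565 in control mice at ZT10, the narrowest range of the 8 genes, 0.17 on the log2 scale. All of its ratios lay between 0.08 and 0.10, and the spots overlapped in all 4 comparisons. Between the highest and the lowest pool Nkx2-1 differed 1.13-fold.

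**Figure D3:**
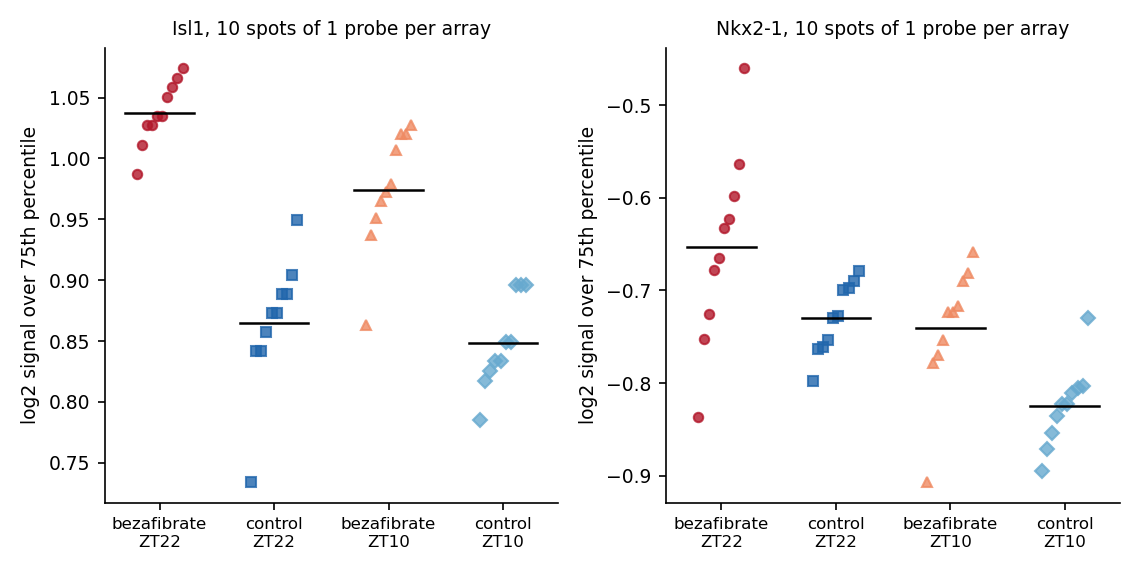
Log2 scaled signal of the 10 spots of Isl1 (left) and of Nkx2-1 (right) on each array, with the mean as a bar. The scaled Isl1 spots of bezafibrate mice at ZT22 lie above those of control mice at ZT22, which they do not before scaling. The scaled Nkx2-1 spots overlap between all pairs compared.

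Bsx, a homeobox factor that drives Agrp and Npy in arcuate neurons, was not well above background on any array, with processed signals of 3.90 in bezafibrate and 3.30 in control mice at ZT22 and 6.06 in bezafibrate and 8.52 in control mice at ZT10, so it has no ratio. Agrp and Npy themselves, the appetite-promoting peptides of those neurons, were measured on every array. Agrp had bezafibrate over control ratios of 1.68 at ZT22 and 0.98 at ZT10, and Npy 1.26 and 0.72. Pomc, the precursor of the appetite-reducing melanocortins, had -0.51 at ZT22 and -1.15 at ZT10. Of 8 other arcuate and tuberal factors on the array, Rax, a homeobox gene of tanycytes, was past 1.5-fold, at 0.87 in bezafibrate over control at ZT22 and at -0.75 in ZT22 over ZT10 in control mice, and its scaled signal was lowest, 0.0576, in control mice at ZT22.

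Lhx6, a LIM-homeodomain factor of GABA neurons, was lowest in 1 pool. Its brighter probe, for BC065077, had scaled signals of 3.46 in bezafibrate mice and 3.18 in control mice at ZT22, against 3.22 in bezafibrate mice and 2.59 in control mice at ZT10. The control ZT10 array stood below the other 3. The ratio of bezafibrate over control was 0.31 ± 0.20 at ZT10 and 0.12 ± 0.20 at ZT22, and that of ZT22 over ZT10 was 0.29 ± 0.20 in control and 0.10 ± 0.20 in bezafibrate mice. The dimmer probe, for NM_008500, was also lowest in control mice at ZT10, with ratios of bezafibrate over control of 0.15 ± 0.24 at ZT10 and -0.07 ± 0.24 at ZT22.

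The list of the basal forebrain and pallidum, where Lhx6 is also expressed, was higher in bezafibrate than in control mice at ZT10 for 5 of 7 genes, with a median of 0.37. Lhx8 (0.36), which acts with Lhx6 in the pallidal anlage, and the cholinergic neuron genes Chat (0.41), Slc5a7 (0.42) and Ngfr (0.40, and 0.23 by its other probe) were among these, chosen for naming after their values were seen, and Gbx1 and Pvalb were lower. The summed scaled signal of the 7 genes, all above background on every array, was 8.59 in bezafibrate and 8.39 in control mice at ZT22 and 8.95 in bezafibrate and 7.11 in control mice at ZT10, lowest on the array where Lhx6 was lowest. All 5 factors of GABA neurons and prethalamus on the list, among them Dlx1 and Dlx2, were also higher in bezafibrate mice at ZT10, with a median of 0.14 and none past 1.5-fold. The part of basal forebrain tissue in the Lhx6 values was not tested.

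**Figure D4:**
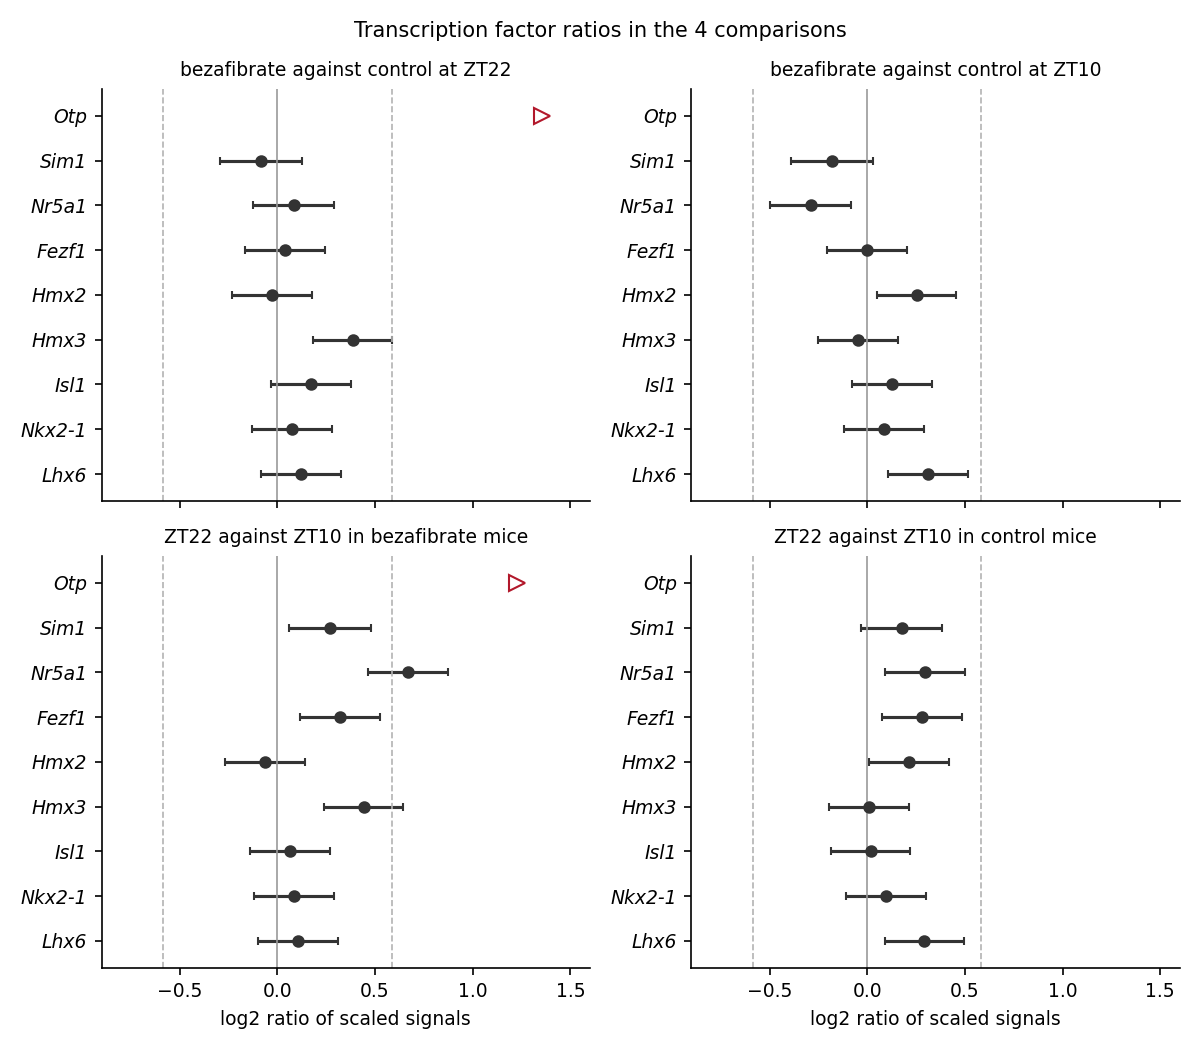
Log2 ratios of the factors in the 4 comparisons, with the scanner error as bars, 0 as a solid line and 1.5-fold as dashed lines. Open arrowheads are lower bounds for Otp, which has no ratio in the right-hand panels. Apart from the Otp bounds, Nr5a1 in ZT22 over ZT10 of bezafibrate mice, at 0.67, is the only gene beyond a dashed line.

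Lists of tissues that border the hypothalamus reached larger ratios. At ZT22, 10 of 10 striatal genes were higher in bezafibrate than in control mice (median 0.53, with Ppp1r1b at 0.96, Drd1 at 0.89 and Rgs9 at 0.71), and so were 7 of 8 choroid plexus genes (median 1.09, with Ttr at 3.76). In scaled signal, 6 of the 8 factors measured on all arrays (Nkx2-1, Nr5a1, Hmx3, Fezf1, Isl1 and Lhx6) were highest on the bezafibrate ZT22 array. Otp was well above background only there. That array had the lowest 75th percentile, 893 against 1010 to 1050 signal units. In processed signal, only Hmx3 of these 6 was highest there, and Nkx2-1 was lowest there. The share of all genes that were highest on that array was not counted, so the 6 of 8 cannot be read as particular to the factors. The summed striatal signal was 13.6 in bezafibrate and 9.01 in control mice at ZT22, against 9.88 in bezafibrate and 10.4 in control mice at ZT10, and that of the 8 choroid plexus genes was 9.57 in bezafibrate and 7.28 in control mice at ZT22, against 5.93 in bezafibrate and 6.20 in control mice at ZT10. At ZT10, 9 of 9 thalamic genes were lower in bezafibrate than in control mice (median -0.36), with Tnnt1 at -1.10, Ramp3 at -0.81 and Prkcd at -0.74. Their sum was 11.8 in bezafibrate and 12.6 in control mice at ZT22, against 11.6 in bezafibrate and 15.0 in control mice at ZT10. The part of these tissues in the factors' ratios was not tested.

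The wider set of nucleus factors is given for comparison. Of 34 other transcription factors of hypothalamic nuclei, 31 were tested, with median diet ratios of 0.00 at ZT22 and 0.07 at ZT10 and median time ratios of 0.05 in each diet. Past 1.5-fold stood 1 of 31 for diet at ZT22 (Rax), 3 for diet at ZT10 (Pou3f2 at 0.74, Foxa1 at 0.69 and Six6 at -0.63), 2 for time in bezafibrate mice (Six6 at 0.83 and Foxa1 at -0.84) and 3 for time in control mice (among them Rax and, as a bound, Foxa1 at -0.68). Six6 is a suprachiasmatic factor, and Foxa1 is a factor of the subthalamic region and of midbrain dopamine neurons. The lateral hypothalamic peptide genes Hcrt, for orexin, and Pmch, for melanin-concentrating hormone, had diet ratios of 0.32 and 0.22 at ZT22 and -0.09 and -0.01 at ZT10. Adcyap1, for the peptide PACAP of ventromedial neurons, had diet ratios of 0.11 at ZT22 and -0.12 at ZT10 and time ratios of 0.00 in bezafibrate and -0.23 in control mice, beside the positive time ratios of Nr5a1 and Fezf1.

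**Figure D5:**
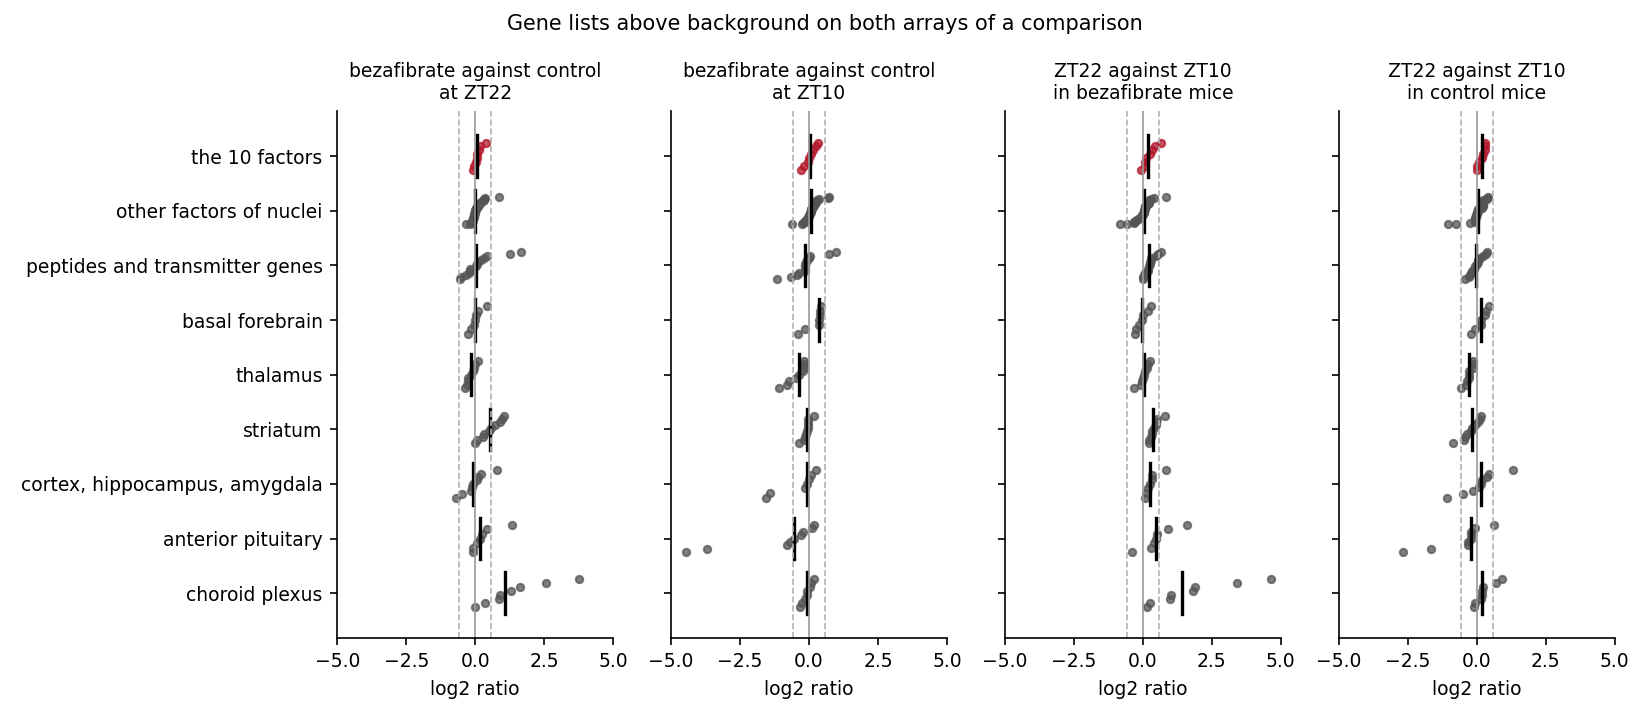
Log2 ratios of genes above background on both arrays of a comparison, by list, with the median as a black bar, 0 as a solid line and 1.5-fold as dashed lines. The 10 factors (red, 8 of them measured on both arrays) stay between -0.29 and 0.67, while choroid plexus genes reach 3.76 at ZT22 in bezafibrate over control.

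The range of the members' log2 levels over the 4 arrays had a median of 0.34 (0.17 to 0.67), beside 0.20 for all 15918 genes measured on all arrays and 0.20 for the 8222 of these within the range of the members' signals. The genes most like Nr5a1, the widest, in centred levels over the 4 arrays were Igf2 (root mean squared distance 0.01), Cyth4 (0.02), Slc18b1 (0.03), Bbof1 (0.03) and Stt3b (0.04). These are the closest of a search over named genes measured on all arrays, which finds close matches by its design. The distances lie below the scanner error of Nr5a1, 0.21, and a shared regulation or cell source was not tested.

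Effects averaged over the other factor were tested with limma over the 4 arrays, a fit with 1 residual degree of freedom. No gene passed an adjusted p of 0.05 for diet (0 of 17543, 0%) or for time (0 of 17543, 0%), while 953 genes for diet and 1895 for time had an unadjusted p under 0.05. Of the 9 members tested, 0 had an unadjusted p under 0.05 for diet and 2 for time. These were Fezf1, at 0.30 higher at ZT22 (unadjusted p = 0.0189 by limma), and Sim1, at 0.22 (unadjusted p = 0.048 by limma), both with an adjusted p of 0.439 and higher at ZT22 in both diets. Nr5a1 had a time effect of 0.48 with an adjusted p of 0.439, and the diet effects of Isl1, 0.15, and Lhx6, 0.22, had an adjusted p of 0.870 by limma.

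The RefSeq promoter table held 12 windows for 9 of the 10 genes. Of these windows 8 (66.7%) had a CpG ratio, observed over expected, above 0.6, beside 35.8% of all 32851 promoters in the table. Motifs were searched on both strands. CACGTG, the E-box bound by clock factors, was in 0 of 12 windows, beside 7.15% of all promoters. AGGTCA, the core element of many nuclear receptor sites, was in 2 of 12, beside 16.3%. A pair of these elements with any base between them, the form bound by PPAR and RXR, was in 0 of 12, beside 0.0396%, and TATAAA was in 3 of 12, beside 13.6%. A match of letters is a description of the window and not a binding site.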

How the data were processed

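RNA of 4 mice per group was pooled, and 400 ng of total RNA was labelled for 1 one-colour array per group, per the labels' protocols. Per the file headers, the authors used Feature Extraction 9.5.1.1 to read the spots. In the deposited array files the processed signal is an intensity corrected for background and not normalized between arrays, and the deposited files also hold other marks per spot (well above background, outlier, saturated). The deposited ratio table, bezafibrate over control, was an alternative only. Its direction was checked against the array files (Pearson's r across spots 0.995 at ZT22 and 0.996 at ZT10), its scaling is not given in the sources used here, and its columns' median log2 ratios were -0.06 at ZT22 and -0.08 at ZT10.

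The log2 processed signal minus the array's 75th percentile was used, without control and outlier spots. Spots of a probe were averaged, and a gene was represented by its brightest probe. Probes were named by accession, symbol or older symbol through RefSeq tables of assembly GRCm38.p6, used for names and promoters. A gene entered a comparison when well above background on at least 1 of its 2 arrays, and a dim side was set to the lowest signal well above background on that array, or its own if higher. The threshold was 1.5-fold. Effects averaged over the other factor were fitted with limma 3.58.1 (R 4.3.3; lmFit, eBayes, Benjamini-Hochberg over all genes tested). Scripts were tested on simulated data. The number of arrays limits the precision.

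The members and lists were chosen with earlier results of these data known. Named were all members, fixed peptide genes, the genes of other lists past 1.5-fold (at most the 4 largest per list and comparison) and the 5 genes most like the widest-ranging member. Genes of lists named beyond this rule were chosen after their values were seen. The alternatives covered scaling, background correction (normexp with an offset of 50 units), choice of probe, limits for dim spots, a signal minimum and the deposited ratios. Crh, Prdm12 and Kcnj13 were not analysed here, and single values of some other genes that the rule names are not reported here.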

Additional observations from a re-analysis of the deposited data

How the results depend on the processing

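Ratios of single members were recomputed 253 times over the alternatives, and 7 moved by more than the scanner error of 0.20, all of them of Otp or Hmx2. Part of the 253 could not move. The limit for dim spots and the signal minimum leave ratios of members above background on all arrays as they were. The mean over probes does so for members with 1 usable probe. The count of 7 is therefore no measure of robustness. Medians and counts of members were recomputed 68 times, and 5 counts moved. With normexp background correction, ZT22 against ZT10 in bezafibrate mice had 0 members past 1.5-fold in place of 2, since Nr5a1 had 0.52 and Otp 0.53. The offset of 50 units in that correction shrinks ratios by design, most for dim spots, so lower counts past 1.5-fold follow from it in part. With the mean over probes, 2 members were past 1.5-fold for bezafibrate against control at ZT22 and 1 for ZT22 against ZT10 in control mice, Hmx2 being at -0.59 and 0.63 there. With a mean signal of at least 100, which leaves out Otp, 0 members were past 1.5-fold for bezafibrate against control at ZT22 and 1 for ZT22 against ZT10 in bezafibrate mice. Otp for diet at ZT22 and time in bezafibrate mice was at 0.59 and 0.53 with normexp and at 3.24 and 3.03 without a limit for dim spots, and in the deposited table at 3.22 for diet. Sim1 for diet at ZT22 was at 0.01 with normexp. Over all genes, normexp left 202, 147, 209 and 272 genes past 1.5-fold and the signal minimum 140, 102, 191 and 220 for diet at ZT22, diet at ZT10, time in bezafibrate and time in control mice, against 929, 653, 909 and 1117. Members at an adjusted p under 0.05 numbered 0 in each limma fit, and 1 to 3 had an unadjusted p under 0.05 for time.

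No paired analysis was possible because each group is 1 pool, with no second replicate number to pair or leave out. The limma fit of both factors sets diets against each other within times, and with 1 factor alone the count of members called was also 0. Without replicates, differences of the size of the scanner error were not detectable, and Otp and Bsx were limited by signal over background.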
